A study of Mus musculus with 2 samples.

Results

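A set of 36 genes of the motile cilium axoneme, of 23930 amplicon targets in all, was followed in newborn mouse cranial suture tissue. The genes had been chosen by name with earlier results of the same data known, so their levels and differences are descriptions. A binomial test over all targets included them, and nothing is read from its calls on them. The deposited table held 34 under the names used here and 2 (Dnai1 and Dnai2) under the older symbols Dnaic1 and Dnaic2. They were divided by role into 16 dynein arm genes, 7 radial spoke and central pair genes, and 13 tektin and assembly genes.

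Motile cilia are hair-like projections that beat, and the axoneme is the microtubule scaffold inside them. Dynein motors form outer and inner arms on the microtubules and make them slide, while radial spokes and the central pair control the beat. Such cilia are known from airway epithelium, ependyma, oviduct and the sperm tail. Bone-forming and suture cells carry a single primary cilium instead, which senses signals and does not beat. The motile programme is switched on by Foxj1 and by the Rfx transcription factors, which bind a palindromic promoter element called the X-box.

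The tissue comprised the coronal, sagittal and lambdoid sutures of wildtype pups at postnatal day 3, with no mutation, treatment or other group. RNA was profiled in 2 libraries with the same batch number, called library 2 and library 1 after the number in their titles. The labels name suture stem cells as the cell type, but the protocol describes whole tissue without a sort, so values are those of bulk tissue, where fewer cells of a type and less RNA per cell cannot be told apart. Nothing in the labels ties either library to a pup or a pool.

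Library 2 held 15802610 reads and library 1 held 5663344. Levels are CPM, the reads of 1 amplicon per gene scaled to the library total. Gene length does not enter such values. Amplicons differ in efficiency, so levels of different genes are compared only loosely. The labelled tissue was present in both libraries, where 12 of 12 suture and osteoblast markers reached 1 CPM, against 55.0% of all targets. Of these markers 10 were higher in library 2, with a median difference of 0.69 on log2(CPM + 1). On that scale 4 were past 2-fold toward library 2, against 7.12% of all targets and 11.2% of those at a mean of 1 CPM or more. By mean CPM they were led by Col1a1 with 132878 CPM in library 2 and 119187 CPM in library 1, Ibsp with 873 CPM in library 2 and 386 CPM in library 1, and Dmp1 with 598 CPM in library 2 and 419 CPM in library 1. Markers of other tissues set the libraries apart as well. Summed over 10 olfactory sensory neuron markers, library 2 had 585 CPM and library 1 had 97.8 CPM. Summed over 8 skeletal muscle markers, library 2 had 9647 CPM and library 1 had 29624 CPM. Their leading genes were Mylpf, with 5222 CPM in library 2 and 13300 CPM in library 1, Myh8, with 2188 CPM in library 2 and 6588 CPM in library 1, and Tnnt3, with 1386 CPM in library 2 and 7312 CPM in library 1.

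Promoter stretches are shown for the members whose promoter held an X-box palindrome, and for Dnah5 and Dnah9, the leading dynein heavy chain genes of library 2. Each is the 100 bases before a RefSeq transcript start (GRCm38.p6, the assembly of mm10), read 5′ to 3′ on the gene's strand. Capitals mark the palindrome, which is GTTGC and GCAAC with 1 to 5 bases between them. This spacing was chosen after the promoters had been looked at.
Dnah6, chr6:73221632-73221731, minus strand: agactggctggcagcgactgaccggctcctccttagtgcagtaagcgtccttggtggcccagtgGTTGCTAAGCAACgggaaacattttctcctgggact
Dnah7a, chr1:53706785-53706884, minus strand: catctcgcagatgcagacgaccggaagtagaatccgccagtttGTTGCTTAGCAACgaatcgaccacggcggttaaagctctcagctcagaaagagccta
Dnah7b, chr1:46066753-46066852, plus strand: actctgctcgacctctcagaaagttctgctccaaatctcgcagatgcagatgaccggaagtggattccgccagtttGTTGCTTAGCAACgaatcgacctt
Dnai2, chr11:114727319-114727418, plus strand: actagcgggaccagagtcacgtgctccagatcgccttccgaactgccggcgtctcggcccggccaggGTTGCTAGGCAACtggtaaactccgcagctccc
Hydin, chr8:110266877-110266976, plus strand: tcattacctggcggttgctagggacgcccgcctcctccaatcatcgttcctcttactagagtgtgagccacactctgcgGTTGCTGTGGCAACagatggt
Tekt2, chr4:126325689-126325788, minus strand: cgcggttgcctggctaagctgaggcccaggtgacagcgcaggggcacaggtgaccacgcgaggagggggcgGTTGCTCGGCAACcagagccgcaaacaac
Tekt4, chr17:25471490-25471589, plus strand: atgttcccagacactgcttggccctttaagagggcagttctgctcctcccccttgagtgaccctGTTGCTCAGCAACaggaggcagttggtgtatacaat
Dnah5, chr15:28203666-28203765, plus strand: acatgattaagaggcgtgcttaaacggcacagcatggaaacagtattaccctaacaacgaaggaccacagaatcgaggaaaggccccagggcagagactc
Dnah9, chr11:66168552-66168651, minus strand: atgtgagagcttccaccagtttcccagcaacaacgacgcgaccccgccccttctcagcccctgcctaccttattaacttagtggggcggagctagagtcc

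In all, 30 members had a promoter window of 300 bases in the RefSeq table, and some had several starts, which gave 33 windows. The palindrome was found in 8 of 33 windows (24.2%), against 0.484% of all 32851 windows. It was not among the motifs planned at first, and its spacing was chosen after these promoters had been looked at. Part of its higher share among the members can thus be built in. A single X-box element, GTTGCC or its reverse complement GGCAAC, was found in 14 of 33 windows (42.4%), against 12.5% of all windows. An element can be part of a palindrome, so these counts overlap. The forkhead motif TGTTTAC or its reverse complement GTAAACA was found in 2 of 33 windows (6.06%), those of Tekt3 and Dnah17, against 3.65% of all windows. The palindromes of Dnah7a and Dnah7b were identical, and that of Tekt2 lay in overlapping windows of its starts. The 13 members with an X-box element had a median difference of 0.48 on log2(CPM + 1), library 2 minus library 1, and the 17 without one had 1.51. Ccdc113, Dnah7a, Mcidas, Spag16 and Spag6, with an element, were below 1 CPM in both libraries and could not reach 2-fold on this scale. Among those without one, Dnah17 and Tekt3 were as low. Dnah6 holds a palindrome but counts as without an element. What sets the 2 medians apart was not tested. Neither Dnah5 nor Dnah9 had a whole element or palindrome in the window of the listed start, and other starts of these genes were not covered.

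**Figure D1:**
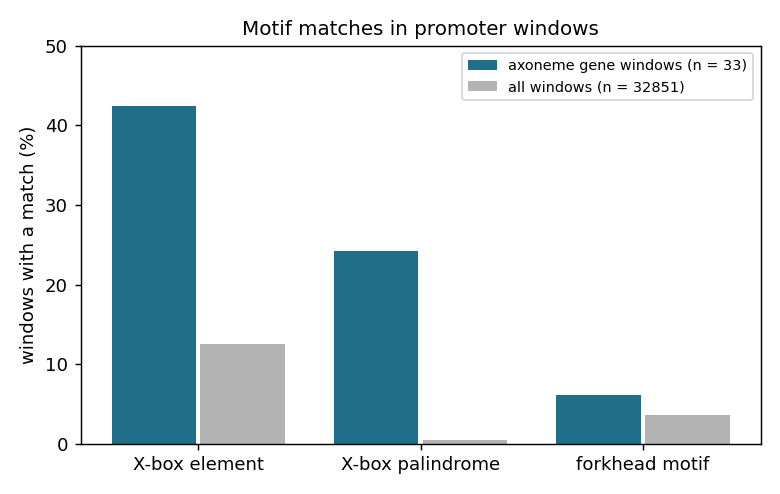
Share of promoter windows (percent, y axis) with an X-box element, an X-box palindrome or a forkhead motif, for the 33 windows of the axoneme genes (blue, left) and all 32851 windows (grey, right). Elements were in 42.4% and palindromes in 24.2% of the axoneme gene windows, against 12.5% and 0.484% of all windows. The palindrome spacing was chosen after the promoters had been looked at, so part of that difference can be built in.

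Most axoneme genes were expressed at a low level, and most had more CPM in library 2. At 1 CPM or more in both libraries there were 18 of 36 members (50%), against 55.0% of all targets. In library 2 alone 28 members reached that level (background 59.1%), and in library 1 alone 18 did (background 57.6%). The 18 members at that level in library 1 were the same as those at it in both. Over all targets 57.6% reached it in library 1 and 55.0% in both, so few targets reached it in library 1 only. The median level over the 36 members was 4.81 CPM in library 2, against 0.971 CPM in library 1. Over all targets it was 3.35 CPM in library 2, against 2.65 CPM in library 1. In reads the median member had 76 in library 2 and 5.5 in library 1, so the precision of a ratio is set by library 1.

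CPM was higher in library 2 for 32 members and higher in library 1 for 3, and Spag6 had no reads in either library. A difference of 2-fold or more on log2(CPM + 1) was reached by 18 of 36 members toward library 2, where the background is 7.12% of all targets, and by none toward library 1, where it is 4.64%. The 8 members below 1 CPM in both libraries could not reach 2-fold on this scale. The median difference was 1.02 over the members and 0.00 over all targets. By an exact binomial test on reads, with Benjamini-Hochberg adjustment over all targets, 20 members were called higher in library 2 (background 20.0%) and 1, Tppp3, higher in library 1 (background 17.1%). Nothing is read from these counts, since the members were chosen with such differences known. They compare 2 libraries of 1 group and no condition. Summed over the 35 members other than Tppp3, library 2 had 220 CPM and library 1 had 46.1 CPM, a ratio of 4.78 with an exact 95% interval from 4.21 to 5.44. Such intervals cover counting error of the reads alone, and the reads carry no molecular identifiers. With Tppp3 the ratio was 1.36, because that gene held 53.4% of the summed CPM in library 2 and 86.7% in library 1.

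**Figure D2:**
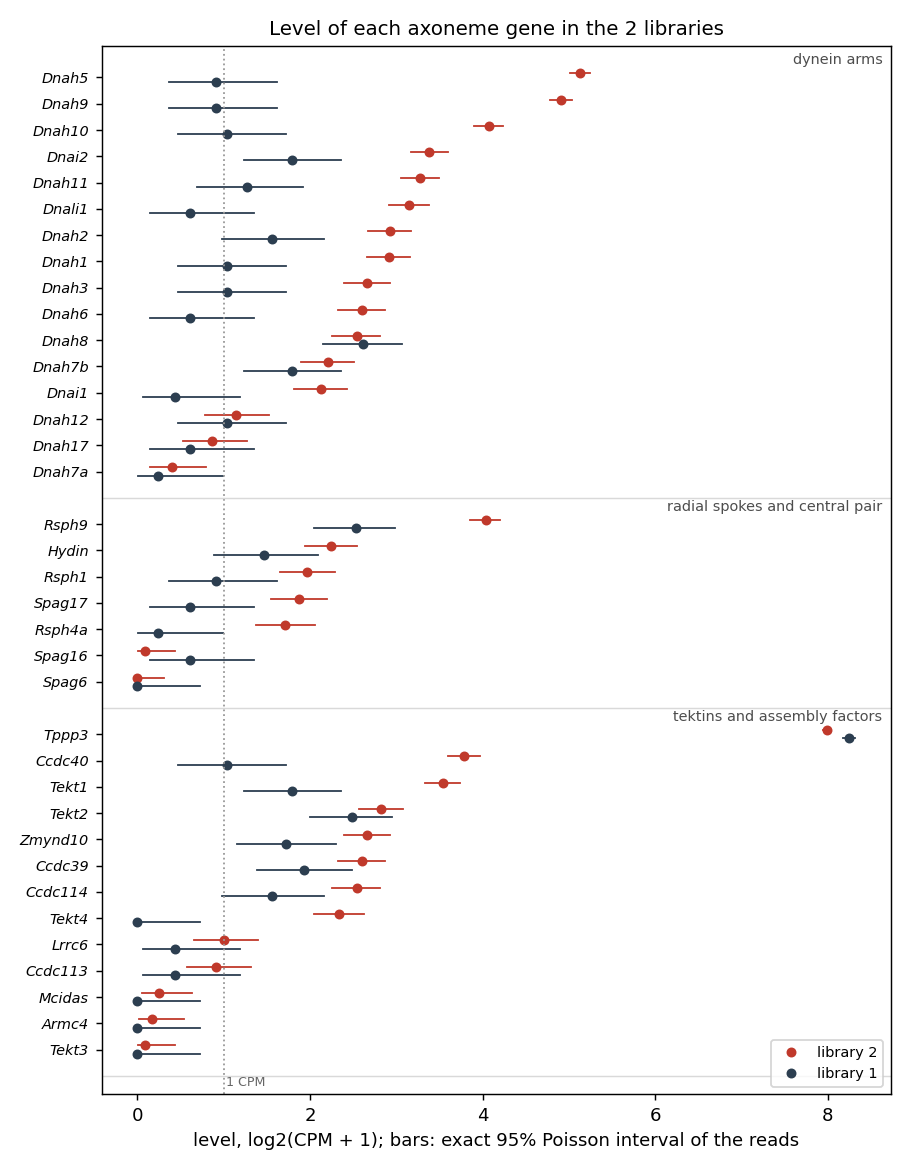
Level of each of the 36 genes as log2(CPM + 1) in library 2 (red) and library 1 (dark blue), by role, with exact 95% Poisson intervals of the reads as bars. Dnah5 and Dnah9 are the leading genes of library 2 after Tppp3, whereas in library 1 most genes lie near or below 1 CPM (dotted line).

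The dynein arm genes differed most. Of 16 genes, 11 were past 2-fold toward library 2 (background 7.12%), with a median difference of 1.65 on log2(CPM + 1). Of the 16, 2 were below 1 CPM in both libraries and could not reach 2-fold on this scale. Summed CPM was 142 in library 2 and 21.5 in library 1 (ratio 6.61, interval 5.50 to 7.99). Outer arm heavy chains, the main force-producing motors, differed among themselves. Dnah5, a heavy chain of the outer arm on mm10 chromosome 15 from 28203752 to 28472052, had 34.0 CPM (537 reads) in library 2 and 0.883 CPM (5 reads) in library 1. Dnah9, its partner in the arm, on chromosome 11 from 65831282 to 66168551, had 29.0 CPM in library 2, against 0.883 CPM in library 1. These were the largest ratios among members with reads in both libraries, 38.5 (interval 16.4 to 119) for Dnah5 and 32.8 (interval 14.0 to 102) for Dnah9. Dnah11, a further outer arm heavy chain needed for left-right asymmetry, had 8.67 CPM in library 2 and 1.41 CPM in library 1 (ratio 6.14, interval 3.03 to 14.5). Dnah8 and Dnah17, outer arm heavy chains known from the sperm tail, had lower ratios. Dnah8 had 4.81 CPM in library 2 and 5.12 CPM in library 1 (ratio 0.939, interval 0.605 to 1.49). Dnah17 stayed under 1 CPM in both, at 0.823 CPM in library 2 and 0.53 CPM in library 1, and its ratio of 1.55 had a wide interval from 0.427 to 8.50.

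Inner arm heavy chains shape the bend of the cilium. Dnah10 led them with 15.8 CPM in library 2 and 1.06 CPM in library 1 (ratio 14.9, interval 6.77 to 41.1). Its partner Dnah2 had 6.58 CPM in library 2 and 1.94 CPM in library 1 (ratio 3.39, interval 1.82 to 6.997). The intervals of these partners overlap only narrowly, with the higher ratio at Dnah10. Dnah1 had 6.52 CPM in library 2 and 1.06 CPM in library 1, and Dnah3 had 5.32 CPM in library 2 and 1.06 CPM in library 1. Dnah6, one of the genes whose X-box palindrome is printed above, had 5.06 CPM in library 2 and 0.53 CPM (3 reads) in library 1. All 5 of these were past 2-fold, whereas the other inner arm heavy chains were not. Dnah7b had 3.61 CPM in library 2 and 2.47 CPM in library 1 (ratio 1.46, interval 0.803 to 2.84). Dnah12 had 1.20 CPM in library 2 and 1.06 CPM in library 1. Dnah7a had 0.316 CPM in library 2 and 0.177 CPM in library 1. Dnah7a and Dnah7b are close copies on chromosome 1, and reads that fit either could have been assigned to one of them, so their separate values are uncertain.

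The smaller dynein chains had more CPM in library 2 as well. Dnai2, an intermediate chain that anchors the outer arm, had 9.43 CPM in library 2 and 2.47 CPM in library 1 (ratio 3.81, interval 2.20 to 7.15). Its partner Dnai1 had 3.35 CPM in library 2 and 0.353 CPM (2 reads) in library 1 (ratio 9.50, interval 2.50 to 80.5). Dnali1, a light intermediate chain of the inner arm, had 7.85 CPM in library 2 and 0.53 CPM (3 reads) in library 1 (ratio 14.8, interval 4.95 to 72.8). All 3 were past 2-fold toward library 2, and the intervals of Dnai1 and Dnai2 overlap.

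**Figure D3:**
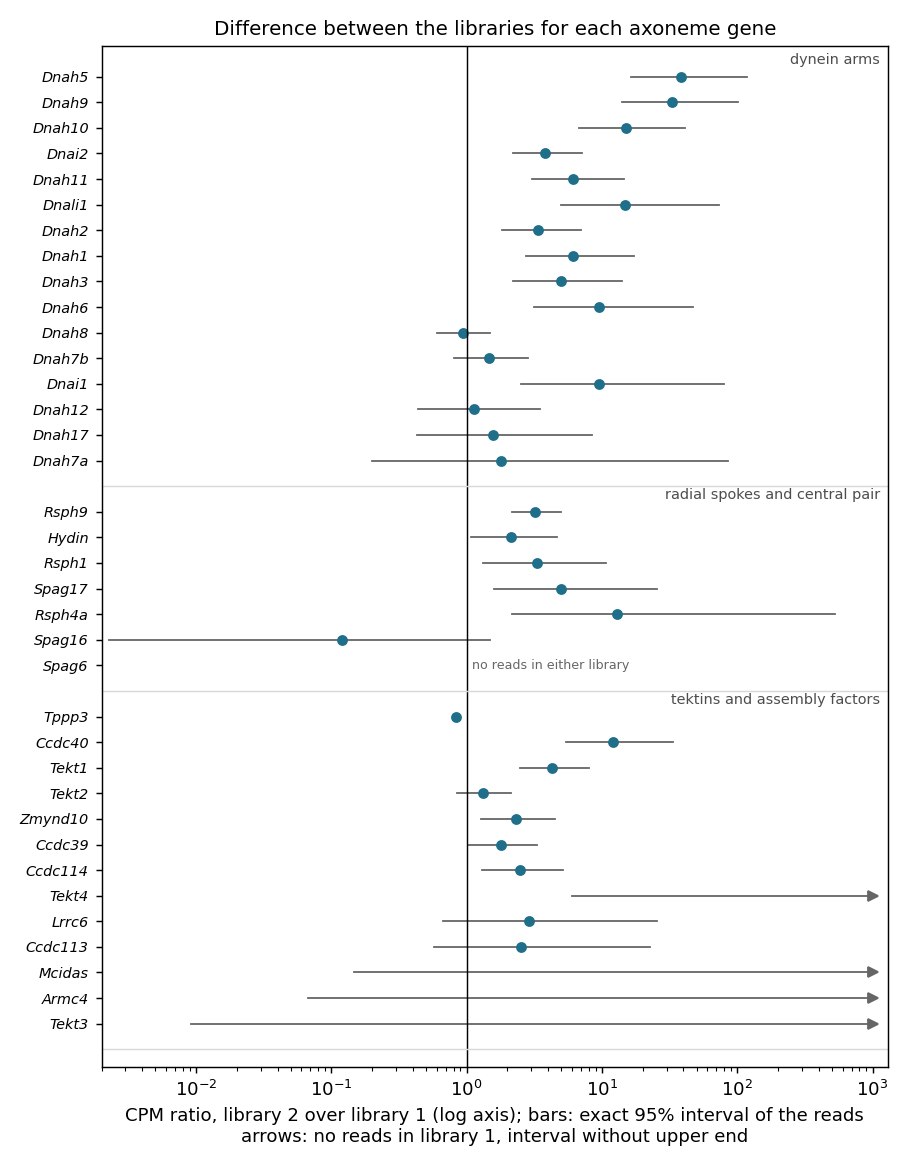
CPM ratio of library 2 over library 1 for each gene (log axis) with exact 95% intervals, by role. Dnah5 (38.5) and Dnah9 (32.8) lie farthest to the right, Tppp3 (0.837), Dnah8 (0.939) and Spag16 lie left of 1, and arrows mark genes without reads in library 1.

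Of the 7 radial spoke and central pair genes, 4 were past 2-fold toward library 2 (background 7.12%), with a median difference of 1.05 on log2(CPM + 1). Of the 7, 2 were below 1 CPM in both libraries and could not reach 2-fold on this scale. The spoke head gene Rsph9 was the best measured, with 15.4 CPM in library 2 and 4.77 CPM in library 1 (ratio 3.23, interval 2.16 to 4.995). Rsph1, also of the spoke head, had 2.91 CPM in library 2 and 0.883 CPM in library 1 (ratio 3.30, interval 1.31 to 10.6). Rsph4a, the spoke head gene with the fewest reads in library 1, had 2.28 CPM in library 2 and 0.177 CPM (1 read) in library 1 (ratio 12.9, interval 2.17 to 524). The 3 spoke head genes were thus all higher in library 2, with intervals that overlap one another.

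Central pair genes were more mixed. Spag17, a scaffold of a central pair projection, had 2.66 CPM in library 2 and 0.53 CPM (3 reads) in library 1 (ratio 5.02, interval 1.60 to 25.3). Hydin, a large central pair protein whose loss causes hydrocephalus, had 3.73 CPM in library 2 and 1.77 CPM in library 1 (ratio 2.11, interval 1.07 to 4.64) and was not past 2-fold on log2(CPM + 1). Spag16 had 1 read in library 2 and 3 reads in library 1, too few for a direction (ratio 0.119, interval 0.0023 to 1.49). Spag6 had no reads, where 3 reads, the limit that a count of 0 allows, correspond to 0.190 CPM in library 2, against 0.530 CPM in library 1. Mice have a near copy of that gene, Spag6l, which was looked at after the values were seen. Spag6l had 3.86 CPM in library 2 and 0.706 CPM in library 1 (ratio 5.47, interval 2.03 to 20.7), so 1 of the copies was read in both libraries.

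Among the 13 tektin and assembly genes, 3 were past 2-fold toward library 2 (background 7.12%) and the median difference was 0.57 on log2(CPM + 1). Of the 13, 4 were below 1 CPM in both libraries and could not reach 2-fold on this scale, which also lowers the median. Tektins are filament proteins inside the axonemal microtubules. Tekt1 had 10.6 CPM in library 2 and 2.47 CPM in library 1 (ratio 4.30, interval 2.49 to 8.04). Tekt4 had 4.05 CPM (64 reads) in library 2 and no reads in library 1. Its level in library 2 was 7.65 times the level of 3 reads in library 1, which leaves out the counting error of the 64 reads. The exact interval of its ratio began at 6.04. Tekt2 differed less, with 6.08 CPM in library 2 and 4.59 CPM in library 1 (ratio 1.32, interval 0.8505 to 2.13), and Tekt3 had 1 read in library 2 and none in library 1. Tekt2 and Tekt4 both hold the palindrome printed above, so that element was found both in a tektin past 2-fold and in one within it.

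Ccdc40 and Ccdc39 together form the ruler that sets the spacing of arms and spokes along the axoneme. Ccdc40 had 12.8 CPM in library 2 and 1.06 CPM in library 1 (ratio 12.1, interval 5.45 to 33.3). Its partner Ccdc39 had 5.06 CPM in library 2 and 2.83 CPM in library 1 (ratio 1.79, interval 1.04 to 3.29). The intervals of the partners do not overlap. Ccdc114, part of the docking complex of the outer arm, had 4.81 CPM in library 2 and 1.94 CPM in library 1 (ratio 2.48, interval 1.31 to 5.17). Armc4, also of the docking complex, had 2 reads in library 2 and none in library 1. Of the docking genes, Ccdc114 was thus detected in both libraries, and Armc4 stayed under the limit of 3 reads.

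Zmynd10 and Lrrc6 help to assemble dynein arms in the cytoplasm before their transport. Zmynd10 had 5.32 CPM in library 2 and 2.30 CPM in library 1 (ratio 2.32, interval 1.28 to 4.53). Lrrc6 had 1.01 CPM in library 2 and 0.353 CPM in library 1 (ratio 2.87, interval 0.674 to 25.7). Ccdc113, an axonemal protein gene, stayed below 1 CPM in both libraries, at 0.886 CPM in library 2 and 0.353 CPM in library 1. None of these genes was past 2-fold on log2(CPM + 1). Mcidas, which starts the multiciliated programme in precursor cells, had 3 reads in library 2 and none in library 1.

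Tppp3 stood apart from every other member. It codes for a tubulin polymerization protein, and in mouse it is also known as a marker of tendon sheath progenitors. The gene, on mm10 chromosome 8 from 105467493 to 105471526, had 252 CPM in library 2 and 301 CPM in library 1, 277 CPM ± 34.8 (SD, n = 2). It was the highest member in both libraries and the only one at 10 CPM or more in both. Its ratio of 0.837 (interval 0.790 to 0.886) lay below 1, as did that of Dnah8, while the other 15 dynein arm genes had ratios above 1. Of 6 tendon markers, 5 also had more CPM in library 1, among them Tnmd with 86.6 CPM in library 2 and 362 CPM in library 1 and Thbs4 with 32.0 CPM in library 2 and 85.8 CPM in library 1, while Fmod had 720 CPM in library 2, against 449 CPM in library 1. Their summed level was 890 CPM in library 2, against 993 CPM in library 1, no tendon marker was at 0 in either library, and their part in the Tppp3 level was not tested.

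Apart from Tppp3 the order of the members was only partly shared between the libraries. Over the other 35 genes Spearman's rho between library 2 and library 1 was 0.638, against 0.944 over all 23930 targets, as a description across genes that share 2 libraries and have few reads in library 1. The 4 leading genes of library 2 after Tppp3 were Dnah5, Dnah9, Dnah10 and Rsph9. They held 42.7% of the summed CPM of those 35 genes in library 2 and 16.5% in library 1. These 4 were picked by their level in library 2, so part of the higher share there is built in. Dnah5 ranked 2 in library 2 and shared rank 19 in library 1. The members lie on 17 chromosomes.

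Other genes of the programme were taken from lists chosen with earlier results of these data known. Of 52 further axoneme genes measured, 32 were past 2-fold toward library 2 (background 7.12%) and 1 toward library 1 (background 4.64%). Their median difference was 1.29 on log2(CPM + 1). Their 3 highest genes by the mean of both libraries were Spef1, a microtubule-bundling protein of the central pair, Gas8, of the nexin link, and Dnal1, a dynein light chain. Spef1 had 21.1 CPM in library 2 and 10.1 CPM in library 1, and Gas8 had 15.5 CPM in library 2 and 9.18 CPM in library 1. Dnal1 had 13.0 CPM in library 2, against 11.1 CPM in library 1. A ranking by the mean favours genes that are high in both libraries. Other genes of the list were higher than Dnal1 in library 2, and these were named after their values were seen. Cfap74 had 16.7 CPM in library 2 and 6.18 CPM in library 1, Dynlrb2 had 15.9 CPM in library 2 and 0.883 CPM in library 1, and Cfap61 had 15.4 CPM in library 2 and 1.06 CPM in library 1. Of 8 dynein preassembly factors, 2 were past 2-fold toward library 2 (background 7.12%) and none toward library 1 (background 4.64%). The 2 were Dnaaf1, with 13.2 CPM in library 2 and 1.06 CPM in library 1, and Dnaaf3, with 3.16 CPM in library 2 and no reads in library 1. The 3 highest by the mean of both libraries were within 2-fold on log2(CPM + 1), although the CPM ratio of Dnaaf5 was 2.02. Ruvbl2, a general chaperone subunit, had 82.1 CPM in library 2 and 48.0 CPM in library 1, Dnaaf5 had 19.2 CPM in library 2 and 9.54 CPM in library 1, and Dnaaf2 had 12.3 CPM in library 2 and 11.8 CPM in library 1.

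Intraflagellar transport genes, which build primary and motile cilia alike, were all detected in both libraries. Of 27 genes 3 were past 2-fold toward library 2 and none toward library 1, and the median difference was 0.17 on log2(CPM + 1). Ift20, their highest gene by the mean of both libraries, had 72.0 CPM in library 2 and 144 CPM in library 1. Its CPM ratio was 0.498, and its difference of -0.995 on log2(CPM + 1) lay just within 2-fold. Ift46 had 77.1 CPM in library 2 and 65.2 CPM in library 1, and Ift140 had 47.4 CPM in library 2 and 42.0 CPM in library 1. Within 2-fold were 24 of the 27 transport genes, which is near the share over all targets. Of all targets 7.12% were past 2-fold toward library 2 and 4.64% toward library 1. Of the 16 dynein arm genes 5 were within 2-fold. Among them Dnah7a and Dnah17 were below 1 CPM in both libraries and could not reach it.

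Of 19 regulators of multiciliated cells, 6 were past 2-fold toward library 2 (background 7.12%), 1 toward library 1 (background 4.64%) and 12 were within it. Foxj1, the master factor of motile cilia, had 29.2 CPM in library 2 and 3.71 CPM in library 1 (ratio 7.88, interval 5.10 to 12.9). Among the X-box binding factors, Rfx3 had 24.7 CPM in library 2 and 6.18 CPM in library 1 (ratio 3.99, interval 2.82 to 5.82). Rfx1 had 38.9 CPM in library 2 and 13.9 CPM in library 1 (ratio 2.79, interval 2.20 to 3.57). These 3 were past 2-fold, whereas Rfx2, with 18.04 CPM in library 2 and 12.2 CPM in library 1, and Rfx4, with 1.65 CPM in library 2 and 2.12 CPM in library 1, were not. Trp73, a p53 family factor of multiciliated cells, had 5.44 CPM in library 2 and 0.353 CPM (2 reads) in library 1 (ratio 15.4, interval 4.14 to 129). Ccno and Deup1 act in the mass production of basal bodies. Ccno had 7.53 CPM in library 2 and 0.883 CPM in library 1, and Deup1 had 3.23 CPM in library 2 and 0.706 CPM in library 1. Both were past 2-fold toward library 2. Myb, which multiciliated and blood precursors use, was the regulator past 2-fold toward library 1, with 10.9 CPM in library 2 and 29.1 CPM in library 1. Gmnc and Foxn4 had no reads in library 1 and stayed under 1 CPM in library 2, at 0.506 CPM and 0.316 CPM, and Cdc20b had 0.127 CPM in library 2, against 0.353 CPM in library 1. The centriole genes that dividing cells also use had ratios from 0.645 to 1.49. Plk4 had 14.998 CPM in library 2 and 10.1 CPM in library 1, and Stil had 11.9 CPM in library 2 and 10.8 CPM in library 1. Cep152 had 3.48 CPM in library 2 and 3.53 CPM in library 1, and Sass6 had 1.14 CPM in library 2 and 1.77 CPM in library 1. E2f4, a cell cycle factor that works with Mcidas, had 82.0 CPM in library 2 and 84.8 CPM in library 1, and the related E2f5 had 7.15 CPM in library 2 and 7.95 CPM in library 1. Ccdc78 had 5.19 CPM in library 2 and 2.30 CPM in library 1.

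**Figure D4:**
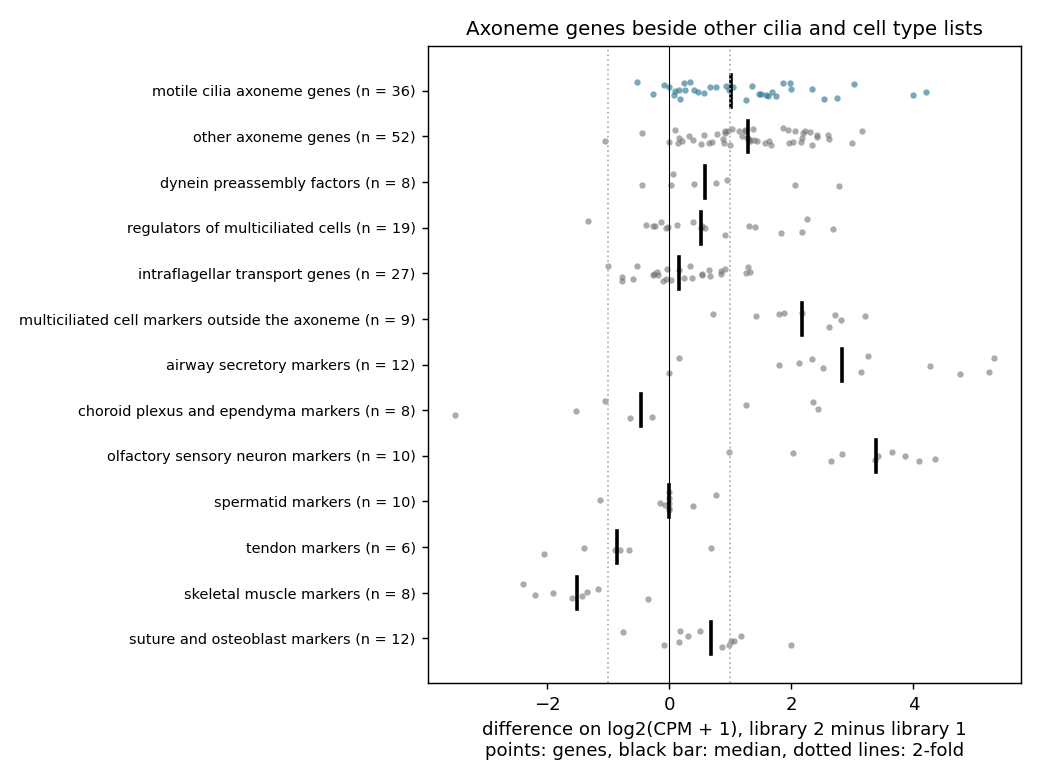
Difference of each gene on log2(CPM + 1), library 2 minus library 1 (x axis), for the axoneme genes (blue) and the other lists (grey), with the median of each list as a black bar and 2-fold as dotted lines. The axoneme genes have a median of 1.02, intraflagellar transport genes lie around 0.17, and airway and olfactory markers lie farther to the right.

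Markers of cells that could carry such cilia were set beside these values. Of 9 multiciliated cell markers outside the axoneme, 9 reached 1 CPM in library 2 and 2 in library 1, with a summed 62.5 CPM in library 2 and 4.59 CPM in library 1. Lrrc23 had 18.5 CPM in library 2 and 1.77 CPM in library 1, Ccdc153 had 12.7 CPM in library 2 and 1.24 CPM in library 1, and Tmem212 had 11.5 CPM in library 2 and 0.353 CPM in library 1. All 9 were higher in library 2, and 3 had no reads in library 1.

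Airway secretory markers also had more CPM in library 2, with 10 of 12 past 2-fold toward library 2 and a summed 499 CPM in library 2 and 62.5 CPM in library 1. Bpifa1, a secreted protein of the upper airway, had 226 CPM in library 2 and 50.7 CPM in library 1. Krt18, a keratin of simple epithelia, had 62.6 CPM in library 2 and 2.30 CPM in library 1, and the antimicrobial lectin gene Reg3g had 52.8 CPM in library 2 and 0.353 CPM in library 1. Scgb1a1, the defining gene of club cells, had no reads in either library. Olfactory sensory neuron markers were past 2-fold toward library 2 in 9 of 10 cases (background 7.12%), none at 0 in either library. Omp had 247 CPM in library 2 and 11.1 CPM in library 1, Adcy3 had 145 CPM in library 2 and 72.9 CPM in library 1, and Gnal had 70.5 CPM in library 2, against 9.01 CPM in library 1. Their part in the axoneme gene levels was not tested.

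The list named for choroid plexus and ependyma and the list for spermatids did not share the direction. The first of these lists holds no gene that marks ependyma alone, so nothing about ependyma is read from it. The multiciliated cell markers above were not split by tissue. Of 8 choroid plexus and ependyma markers, 3 were past 2-fold toward library 2 and 3 toward library 1, with a summed 54.8 CPM in library 2 and 80.7 CPM in library 1. Ttr, the defining transport protein of choroid plexus, had 4.62 CPM in library 2 and 62.7 CPM in library 1. Clic6 had 22.7 CPM in library 2 and 3.36 CPM in library 1, and the head transcription factor Otx2 had 19.5 CPM in library 2 and 3.00 CPM in library 1. Kcne2 was at 0 in library 2, and the remaining genes of this list were Kl, Folr1, Slc4a5 and Kcnj13. Of 10 spermatid markers, 2 reached 1 CPM in library 2 (background 59.1%) and 2 in library 1 (background 57.6%), and 5 had no reads in each library. Tssk6 had 9.81 CPM in library 2, against 7.24 CPM in library 1, the protamine Prm2 had 0.506 CPM in library 2 and 2.30 CPM in library 1, and Prm1 had 1.01 CPM in library 2 and 0.177 CPM in library 1.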

How the data were processed

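RNA from whole suture tissue was made into libraries with an Ion AmpliSeq mouse panel, per the labels' protocols. The authors deposited CPM values for 23930 targets. The submitters' processing notes name mm10 as the build. For the aligner, the counter and the filters, nothing was given in the sources used here. Every value was a whole multiple of 1 read (100% of values per library at a tolerance of 0.01 read, largest departure 0.0079), so reads were recovered, and an exact binomial test on them called 4779 targets higher in library 2 and 4084 higher in library 1 at an adjusted p threshold of 0.05. Differences are log2(CPM + 1), pseudocount 1 CPM, library 2 minus library 1, which understates changes near 1 CPM. Ratios carry exact 95% intervals (Clopper-Pearson, converted by depth), and levels in the plot carry exact Poisson intervals. Gene positions are from GENCODE M21. Amplicon positions were not used here. Values per library were given for members at 1 CPM or more in either library, the 3 highest genes of other lists by mean CPM and all regulators. Others were named after their values were seen, among them Scgb1a1, Kcne2, Spag6l, Dnah7c, Dnah14, Dnaaf1, Dnaaf3, Cfap74, Dynlrb2 and Cfap61. The members and lists were chosen with earlier results of these data known. With 1 group of 2 libraries no condition could be tested, and the spread may be technical. Scripts were checked on simulated reads. Python 3.11.15, scipy 1.17.1 and edgeR 4.0.16 (TMM factors) were used.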

Additional observations from a re-analysis of the deposited data

How the results depend on the processing

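The number of axoneme genes detected was 18 at 1 CPM in both libraries, 25 at 0.5 CPM (background 59.9%) and 4 at 3 CPM (background 47.2%). Leaving out either library gave 18 to 28 genes and a median level of 0.971 to 4.81 CPM, with the higher values in library 2 alone. Toward library 2, 18 genes were past 2-fold with TMM scaling (background 6.77%), median-of-ratios scaling (6.47%) or a filter at a mean of 1 CPM (11.2%, 27 genes kept), 20 with a pseudocount of 0.5 CPM (9.47%), 22 at 1.5-fold (16.4%) and 8 with a pseudocount of 5 CPM (background 2.89%), which shrinks low genes by construction. The median difference of 1.02 became 1.21 with a pseudocount of 0.5 CPM and 0.48 with 5 CPM. Over the 27 genes that average at least 1 CPM it was 1.51. That filter keeps genes that pass through library 2 alone, such as Dnah5 and Tekt4, so part of this rise is built in. No gene changed sign under these pseudocounts and scalings, but a pseudocount cannot change a sign. The scaling factors, from 0.983 to 1.02, could do so only for very small differences. Spag6l in place of Spag6 gave 19 genes past 2-fold. No difference could be computed without either library. No paired analysis was possible because the 2 libraries form 1 group. Library 1, with a median of 5.5 reads per gene, limits the ratios.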
